A study of Mus musculus with 8 samples.

Results

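Transcript levels of Txnip, Arrdc4, Arrdc3, Mlx and Mlxip, the alpha-arrestins and glucose-sensing transcription factors that are often studied together, were followed in mouse embryonic fibroblasts (MEFs) exposed to RHPS4. These 5 genes were chosen by name out of 24460 genes in the count tables, with their own levels across the doses already known, so their levels and differences are given as a description. No p-value is given for them, and where the text says that one of them passed the thresholds used for all genes, this describes its size and spread and is no evidence beyond the choice. RHPS4 is a small molecule that binds G-quadruplexes (G4s), stacked structures of guanine-rich nucleic acid, and the study asked how it acts on mitochondrial DNA (mtDNA) and its transcripts. Wild type MEFs were grown in DMEM with 25 mM glucose and 4 mM glutamine, and received RHPS4 at 0 µM (3 libraries), 2 µM (3 libraries) or 10 µM (2 libraries). The labels give exposures of 16 or 24 h for the cultures of the study and do not say which applied to these libraries. They also do not say whether libraries of a dose came from separate cultures, so every error and p-value below covers the spread between these libraries only. No genetic change was labelled in any group.

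Txnip binds and inhibits thioredoxin and, like its relative Arrdc4, promotes removal of glucose transporters from the cell surface. Both genes are classical targets of MondoA, the protein of Mlxip, which pairs with the protein of Mlx and enters the nucleus when glucose phosphates accumulate, binding E-boxes in promoters. Arrdc3 is an alpha-arrestin that acts in the endocytosis of adrenergic receptors and in energy balance, and is not a classical target of this pair. A low Txnip transcript level is therefore widely read as a sign of low glucose phosphate or of nutrient use, but transcript levels do not measure either.

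The 8 libraries held 10455965 to 26688121 counts, and 14296 genes were tested across doses, all 5 genes included. mtDNA features took 13.2% to 14.4% of counts at 0 µM, 7.40% to 8.26% at 2 µM and 5.33% to 6.32% at 10 µM. With libraries scaled over nuclear genes only, the Txnip log2 fold change was -1.11 at 2 against 0 µM, beside -1.12 in the main fit. That of Arrdc4 was -0.75, beside -0.76. At 10 against 0 µM, Txnip had 0.16 in both fits. Any part of the mtDNA shift beyond this scaling was not tested. The fibroblast label was checked against marker genes, and mean levels in CPM (counts scaled to library size) were 3165 for Col1a2 and 3689 for Vim at 0 µM, with Pdgfra at 205. Lum and Thy1, also on the fibroblast list, were low at 0.996 and 7.25 CPM. Of markers of other cell types, Epcam was at 0.489, Ptprc at 0.886 and Cd68 at 5.75 CPM. In bulk RNA, fewer cells that express a gene and less RNA per cell cannot be told apart.

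The promoter windows of the 3 alpha-arrestin genes are shown because MondoA acts through E-boxes and RHPS4 binds G4s. In live cells at a low dose, the study located RHPS4 mainly to mitochondria and saw no clear nuclear signal. Whether RHPS4 reaches these promoters was not tested. Each window covers 250 bases before to 50 bases after the RefSeq start (GRCm38.p6), 5′ to 3′ on the strand of the gene. All 5 genes matched a window, Arrdc3 with 3 windows of which the first is printed. In Txnip and Arrdc4, capitals mark E-boxes (CACGTG), a relaxed form of an E-box pair (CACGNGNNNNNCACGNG) and CCAAT boxes on either strand, and in Arrdc3 they mark the G4 motif, defined as 4 runs of at least GGG with gaps of 1 to 7 bases.
Txnip, chr3:96557707-96558006, plus strand: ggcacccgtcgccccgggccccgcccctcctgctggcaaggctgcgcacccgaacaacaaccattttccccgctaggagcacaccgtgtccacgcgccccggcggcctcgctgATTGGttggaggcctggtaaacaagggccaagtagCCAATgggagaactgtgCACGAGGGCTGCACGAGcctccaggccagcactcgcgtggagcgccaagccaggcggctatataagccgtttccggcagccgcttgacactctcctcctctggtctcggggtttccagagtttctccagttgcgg
Arrdc4, chr7:68749189-68749488, minus strand: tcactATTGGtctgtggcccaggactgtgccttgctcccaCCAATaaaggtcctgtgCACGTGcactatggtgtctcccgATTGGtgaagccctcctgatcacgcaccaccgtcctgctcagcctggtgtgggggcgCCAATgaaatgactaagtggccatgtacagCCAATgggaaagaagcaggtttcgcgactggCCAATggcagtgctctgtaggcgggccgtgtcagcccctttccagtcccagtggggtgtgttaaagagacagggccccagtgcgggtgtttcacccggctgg
Arrdc3, chr13:80883134-80883433, plus strand: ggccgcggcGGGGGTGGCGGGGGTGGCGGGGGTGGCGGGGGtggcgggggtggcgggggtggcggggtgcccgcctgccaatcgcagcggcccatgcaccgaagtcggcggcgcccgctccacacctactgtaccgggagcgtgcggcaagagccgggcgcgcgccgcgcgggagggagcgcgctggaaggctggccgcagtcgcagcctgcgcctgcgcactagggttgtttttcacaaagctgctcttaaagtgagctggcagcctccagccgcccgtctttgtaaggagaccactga

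Txnip had no CACGTG in this window, but a relaxed pair at positions -85 to -69 from the start, the arrangement known as its carbohydrate response element. The relaxed form was written with the Txnip promoter in view, and 16 of 32851 windows of the same length held it (0.0487%), while 0 windows held a strict pair with CACGTG on both sides. The Arrdc4 window had a CACGTG at -193 to -188, as did 7.15% of windows, and 6 CCAAT boxes, where 1.06% of windows had 4 or more. The Mlx window, which is not printed, had a CACGTG at -40 to -35. The Arrdc3 and Mlxip windows had none. G4 motifs, found in 18.6% of windows on either strand, lay in the Txnip window (opposite strand, -246 to -224), in the Arrdc3 window (gene strand, -241 to -210) and in the Mlxip window (gene strand, 33 to 50), and in neither the Arrdc4 nor the Mlx window. These are matches of letters, and no binding was measured.

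Txnip transcripts stood far lower at 2 µM than in untreated cells, and at 10 µM they were at or just above the top of the untreated range. Txnip (ENSMUSG00000038393) lies on chromosome 3 from 96557957 to 96561883 of GRCm38, on the plus strand. Its level, as CPM after TMM scaling, was 133, 110 and 123 in the untreated libraries. It was 57.7, 51.3 and 59.0 CPM at 2 µM and 133 and 139 CPM at 10 µM. Every 2 µM library was thus below every other library, with no overlap, whereas the 10 µM libraries lay at and just above the top of the untreated ones. The means were 122 ± 11.7 CPM at 0 µM (SD, n = 3), 56.01 ± 4.15 at 2 µM (SD, n = 3) and 136 ± 4.60 at 10 µM (SD, n = 2). The untreated values rested on 1285, 2219 and 3087 raw counts, those of 2 µM on 655, 629 and 993, and those of 10 µM on 2177 and 1938.

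A gene was called when edgeR's quasi-likelihood test gave an adjusted p below 0.01 and the fold change passed 1.5. The Txnip level at 2 µM was 46.0% of the untreated level, a log2 fold change of -1.12 (SE 0.0877), and passed both thresholds. From 2 to 10 µM it stood 2.43-fold higher (log2 fold change 1.28, SE 0.0954), again past both, while 10 µM against 0 µM gave 0.16 (SE 0.0944) and did not pass. The comparisons share their control libraries. Of the 5 genes, 1 was called at 2 against 0 µM, where 0.497% of all tested genes were called, 0 at 10 against 0 µM (3.09% of all) and 1 at 10 against 2 µM (5.51% of all). As the genes were chosen on these contrasts, nothing is read from those shares. With any single library left out, the Txnip log2 fold change at 2 µM ranged from -1.18 to -1.05 and stayed called, and at 10 against 0 µM it ranged from 0.07 to 0.20. With total counts only, the Txnip value at 10 against 0 µM was 0.38 (SE 0.0858), short of 1.5-fold.

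An antisense gene, Gm15441, spans the whole of Txnip on the opposite strand, and 13.8% of the 75-base stretches of Txnip exons lay in its exons. The libraries were stranded, but the strand setting of the counting is not given in the sources used here. Gm15441 held 7 to 15 counts per library at 0 µM, 4 to 5 at 2 µM and 4 to 13 at 10 µM, too few to be tested. These counts were small beside those of Txnip in every library.

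**Figure D1:**
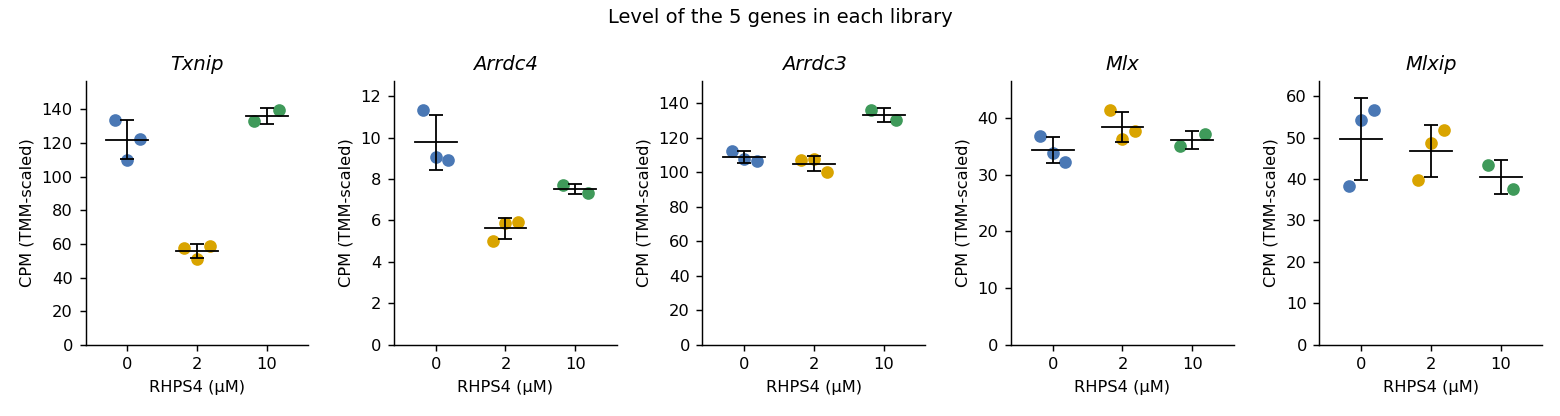
TMM-scaled CPM of the 5 genes against RHPS4 dose, with points for libraries, horizontal lines for group means and bars for the SD. Txnip lay between 51.3 and 59.0 CPM in the 2 µM libraries and at 110 or above in the others, while the Mlx and Mlxip groups overlapped.

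Arrdc4, the closest functional relative of Txnip among these genes, was also at its lowest at 2 µM. In TMM-scaled CPM it lay below the untreated libraries at 10 µM as well, by an amount that depended on the scaling. It lies on chromosome 7 from 68736995 to 68749241, on the minus strand, and shared no exon stretch with another gene. Its levels were 11.3, 9.07 and 8.93 CPM at 0 µM. They were 5.02, 5.87 and 5.94 CPM at 2 µM and 7.69 and 7.34 CPM at 10 µM. The 3 doses did not overlap, with 10 µM between the other two. The means were 9.77 ± 1.34, 5.61 ± 0.511 and 7.52 ± 0.251 CPM (SD, n = 3, 3 and 2).

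The Arrdc4 log2 fold change at 2 against 0 µM was -0.76 (SE 0.133), or 58.9% of the untreated level, past the fold threshold but not past the adjusted p of the main test. It did pass both thresholds in DESeq2 (-0.77), without the filter on low counts (-0.76), and with untreated replicate 1, its highest library, left out (-0.66). At 10 against 0 µM it was -0.35 (SE 0.142) and at 10 against 2 µM it was 0.41 (SE 0.153), neither past the thresholds. With total counts only, the value at 10 against 0 µM was -0.14 (SE 0.136). Raw counts of Arrdc4 were 57 to 225 per library, an order of magnitude below those of Txnip.

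Arrdc3 did not share the dip at 2 µM and was highest at 10 µM. It lies on chromosome 13 from 80883384 to 80896042, on the plus strand. Levels were 113, 108 and 106 CPM at 0 µM. They were 107, 108 and 100.4 CPM at 2 µM and 136 and 130.4 CPM at 10 µM. The 0 and 2 µM libraries overlapped, and the 10 µM libraries lay above all of them. The log2 fold change at 2 against 0 µM was -0.05 (SE 0.0655), and its sign turned to 0.03 when libraries were scaled by total counts only. At 10 against 0 µM it was 0.29 (SE 0.0724) and at 10 against 2 µM it was 0.34 (SE 0.0725), both short of 1.5-fold.

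**Figure D2:**
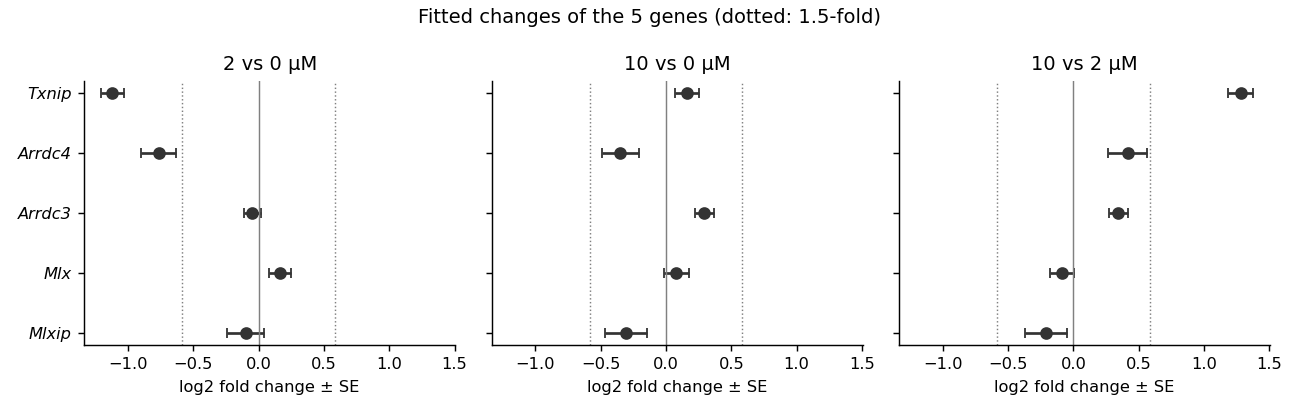
Fitted log2 fold changes of the 5 genes with their SE (bars) for 2 against 0 µM, 10 against 0 µM and 10 against 2 µM, with dotted lines at a fold of 1.5. Txnip passed the lines at 2 against 0 µM (-1.12) and at 10 against 2 µM (1.28), and Arrdc4 passed the line only at 2 against 0 µM (-0.76).

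The genes of the sensing factors themselves showed no separation between doses. Mlx, on chromosome 11 from 101087277 to 101092207 (plus strand), encodes the partner that MondoA and ChREBP need to bind DNA. Untreated libraries had 36.8, 33.8 and 32.3 CPM, those of 2 µM 41.3, 36.3 and 37.6 CPM, and those of 10 µM 35.0 and 37.2 CPM. The groups overlapped in all 3 comparisons. The log2 fold changes were 0.17 (SE 0.0843) at 2 against 0 µM and 0.08 (SE 0.0938) at 10 against 0 µM. At 10 against 2 µM it was -0.09 (SE 0.0943), and 0.05 when scaled by total counts only. The end of Mlx overlaps Psmc3ip on the opposite strand by 385 bases, and 14.2% of its exon stretches are shared. Psmc3ip had means of 18.3, 21.9 and 16.1 CPM at 0, 2 and 10 µM, with a log2 fold change of 0.27 (SE 0.106) at 2 against 0 µM. With the strand setting of the counting not given, the part of this overlap in the Mlx levels was not tested.

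Mlxip, on chromosome 5 from 123394798 to 123457932 (plus strand), encodes MondoA. Untreated libraries had 38.2, 54.1 and 56.6 CPM, those of 2 µM 39.7, 48.7 and 51.8 CPM, and those of 10 µM 43.4 and 37.6 CPM. Here the spread among untreated libraries (SD 9.97 CPM, n = 3) exceeded the difference between the means of any pair of doses, and replicate 1 was the lowest library both at 0 and at 2 µM. Those were also the shallowest libraries of their doses, with 10455965 and 11391061 counts, and the part of depth was not tested. The log2 fold changes were -0.10 (SE 0.142) at 2 against 0 µM, -0.31 (SE 0.160) at 10 against 0 µM and -0.21 (SE 0.162) at 10 against 2 µM. The first of these turned to 0.006 without untreated replicate 3 and to 0.005 without 2 µM replicate 1. With a library left out, the second ranged from -0.47 (without untreated replicate 1) to -0.20 (without untreated replicate 3), and the third from -0.36 (without 10 µM replicate 1) to -0.15 (without 2 µM replicate 3).

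Per kilobase of exon, the order of the 5 levels changed with dose through Txnip. In untreated cells the mean level per length (RPKM) was highest for Txnip at 39.1 ± 3.75, followed by Arrdc3 at 17.4 ± 0.515 and Mlx at 17.2 ± 1.15, which did not differ beyond their spread. Mlxip came next at 5.96 ± 1.20 RPKM and Arrdc4 was lowest at 2.42 ± 0.331 RPKM (SD, n = 3 for each). At 2 µM, Mlx was at 19.2 ± 1.31, Txnip at 17.9 ± 1.33 and Arrdc3 at 16.8 ± 0.650 RPKM, neighbours that lay within about their SDs of each other. At 10 µM Txnip was again highest at 43.6 ± 1.47 RPKM, ahead of Arrdc3 at 21.3 ± 0.619 and Mlx at 18.1 ± 0.760 (SD, n = 2). Mlxip and Arrdc4 kept the bottom places at every dose.

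Ratios of raw counts within a library need no scaling between libraries. The Txnip to Arrdc3 ratio was 1.19, 1.02 and 1.15 in untreated libraries. The 2 µM libraries gave 0.539, 0.476 and 0.588, and those of 10 µM gave 0.978 and 1.07. The 2 µM dose was again apart from all others. The Txnip to Mlx ratio showed the same picture, with means of 3.55 ± 0.278 at 0 µM, 1.46 ± 0.0949 at 2 µM and 3.77 ± 0.0312 at 10 µM.

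The ratio between the classical MondoA targets was not constant. Txnip counts were 11.8, 12.1 and 13.7 times those of Arrdc4 at 0 µM. They were 11.5, 8.74 and 9.93 times at 2 µM and 17.3 and 19.0 times at 10 µM. The 10 µM libraries thus lay above the other 6. In TMM-scaled CPM, Txnip was there at or just above the top of its untreated range, and Arrdc4 was below its own. The Arrdc4 to Arrdc3 ratio was 0.0896 ± 0.00949 at 0 µM (SD, n = 3), 0.0535 ± 0.00622 at 2 µM (SD, n = 3) and 0.0564 ± 0.000243 at 10 µM (SD, n = 2), so both treated doses lay below the untreated one. At 10 µM this ratio also carries the higher Arrdc3 level, with a log2 fold change of 0.29 against 0 µM beside -0.35 for Arrdc4. All of these ratios rest on the contrasts on which the genes were chosen.

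**Figure D3:**
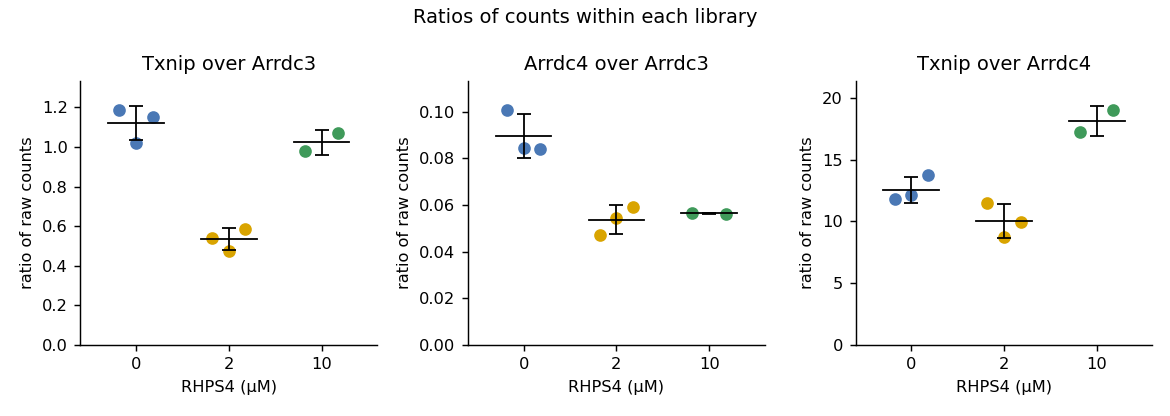
Ratios of raw counts within each library against RHPS4 dose (points: libraries, lines: means, bars: SD). Txnip over Arrdc3 was at 0.476 to 0.588 in the 2 µM libraries and at 0.978 or above elsewhere, and Txnip over Arrdc4 was highest at 10 µM (17.3 and 19.0).

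Over the 8 libraries, Arrdc4 ranked 629 among the tested genes in likeness to Txnip, by Pearson r of log2 CPM (r = 0.82). By Spearman rank it was at place 1885 (rho = 0.64), and r was 0.65 without the 2 libraries farthest from the Txnip median. Arrdc3 had an r of 0.63, Mlx of -0.53 and Mlxip of -0.20. The 5 genes most like Txnip were Vegfa (r = 0.993), an angiogenic growth factor, Capn6 (0.992), Lama4 (0.989), a laminin chain of basement membranes, Igf2r (0.989) and Zfp874b (0.980). Vegfa was at 100.04, 70.95 and 103 CPM at 0, 2 and 10 µM, a log2 fold change of -0.50 at 2 µM (SE 0.0667) that was short of 1.5-fold. By Spearman rank Vegfa fell back to place 1034 and Capn6 was at place 4, so which gene is most like Txnip turns on the measure. The most opposed genes were Cdan1 (-0.991), Ddx31 (-0.980), Slc30a1 (-0.980), Eaf1 (-0.977) and Prdm4 (-0.976). Of these only Slc30a1, a zinc exporter, passed the thresholds used for all genes. Its log2 fold changes were 1.20 at 2 against 0 µM (SE 0.158) and -1.37 at 10 against 2 µM (SE 0.188). The like and opposed genes were picked by their pattern over the same libraries. Differences between doses were thus part of the choice, and no p-value is given for these genes.

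The genes most like Arrdc4 were Tle6 (r = 0.987), B430319G15Rik (0.981), Prkacb (0.969), a catalytic subunit of protein kinase A, Lhfpl2 (0.966) and Serinc5 (0.962), none called in any comparison. These correlations come from 8 libraries in 3 doses that share depth and scaling, and they describe the pattern only. Neither target was on the other's list of most similar genes.

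Among 7 other arrestins, 4 were tested, and edgeR and DESeq2 called 0 in each of the 3 comparisons. In edgeR, 0.497%, 3.09% and 5.51% of all tested genes were called at 2 against 0, 10 against 0 and 10 against 2 µM. A count of 0 of 4 is near those shares. The unadjusted edgeR p was below 0.05 for 2 genes at 10 against 2 µM and for 0 in the other comparisons. The share of all tested genes at that unadjusted p is not given here, so such counts have no baseline. Arrdc1, which buds vesicles from the plasma membrane, had log2 fold changes of -0.03 (SE 0.143) at 2 against 0 µM and 0.33 (SE 0.152) at 10 against 0 µM, and Arrdc2 had -0.12 (SE 0.186) and 0.19 (SE 0.197). The beta-arrestins, which switch off G protein-coupled receptors, gave 0.08 (SE 0.0984) and -0.20 (SE 0.111) for Arrb1 and 0.05 (SE 0.0865) and 0.05 (SE 0.0959) for Arrb2. Arrdc5 and the visual arrestins Sag and Arr3 were too low to be tested, at 1 to 19 counts per library.

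In the wider MYC-MAX-MLX network, the MXD repressor genes Mxd1, Mxd4 and Mxi1 were, like Txnip, at their lowest at 2 µM. Mxd3, of the same family, was not, with means of 20.3, 21.8 and 18.5 CPM at 0, 2 and 10 µM. MXD proteins pair with MAX and oppose MYC at E-boxes, and MXD1, MXD4 and MNT can also pair with MLX. All 11 network genes were tested, and 1 was called at 2 against 0 µM, 2 at 10 against 0 µM and 4 at 10 against 2 µM, beside 0.497%, 3.09% and 5.51% of all tested genes. As shares of the list these were 9.09%, 18.2% and 36.4%. The list's median log2 fold changes were 0.03, 0.05 and 0.24 beside -0.01, 0.02 and 0.03 over all tested genes.

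Mxi1 fell at 2 µM, with a log2 fold change of -0.63 (SE 0.0858, edgeR adjusted p = 0.00344), and rose from 2 to 10 µM by 0.62 (SE 0.0948, edgeR adjusted p = 0.00114). Its means were 41.2 ± 2.11, 26.6 ± 0.439 and 41.0 ± 4.74 CPM. Mxi1 sat just past the fold threshold, and its call at 2 µM was lost with each of the 6 libraries of 0 and 2 µM left out in turn (-0.66 to -0.58), and its call from 2 to 10 µM without 2 µM replicate 3 (0.58) or 10 µM replicate 2 (0.46), in DESeq2 (0.58) and without the low-count filter (0.58). With total counts only, the call at 2 µM was lost as well (-0.55). Mxd1 was at 11.2 ± 0.721, 7.53 ± 0.239 and 17.1 ± 0.734 CPM, with no overlap between doses. It rose above the untreated level at 10 µM by 0.60 (SE 0.105, edgeR adjusted p = 0.0038) and from 2 to 10 µM by 1.18 (SE 0.111, edgeR adjusted p = 4.55e-05), and its 2 against 0 µM value of -0.58 (SE 0.105, edgeR adjusted p = 0.0152) was not called. Mxd1 thus differed from Txnip in passing the thresholds at 10 against 0 µM. That call was lost in DESeq2 (0.57), without the low-count filter (0.56), in a fit of the compared groups only (0.60) and with a replicate block (0.62). It was also lost with 7 of the 8 libraries left out in turn (0.53 to 0.66), 2 µM replicate 1 being the exception. Mxd4 was at 25.04 ± 1.10, 17.9 ± 0.886 and 28.0 ± 0.028 CPM, also without overlap, and only its change from 2 to 10 µM was called (0.65, SE 0.0907, edgeR adjusted p = 0.000703).

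Of the other network genes, Mycn, a MYC family gene, fell at 10 µM by 1.68 on the log2 scale against untreated cells (SE 0.27, edgeR adjusted p = 0.00249) and by 1.88 against 2 µM (SE 0.272, edgeR adjusted p = 0.000834), with 0.20 (SE 0.186) at 2 against 0 µM. The first call was lost without untreated replicate 2 (-1.71) or 3 (-1.67) or 10 µM replicate 1 (-1.48) or 2 (-1.95), and the second without 10 µM replicate 1 (-1.69). Mnt was also lowest at 2 µM, with means of 21.6, 15.6 and 18.4 CPM and ranges of 15.7 to 25.6, 13.9 to 16.8 and 17.6 to 19.3 CPM, but with -0.49 (SE 0.155, edgeR adjusted p = 0.0985) at 2 against 0 µM it was not called and the groups overlapped. Mlxipl, the gene of ChREBP, had 0.17 (SE 0.292) and 0.58 (SE 0.299) at 2 and 10 µM, neither called. Max, Myc, Mycl, Mxd3 and Mga were not called in any comparison, with Mycl at 0.92 (SE 0.288, edgeR adjusted p = 0.0568) and Max at -0.42 (SE 0.191) for 10 against 0 µM.

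**Figure D4:**
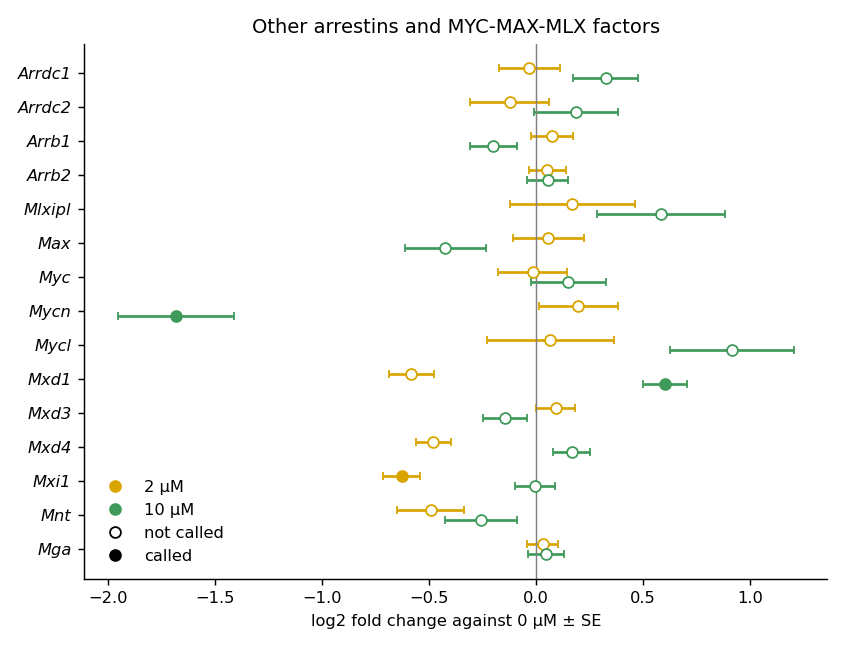
Log2 fold changes against 0 µM, with their SE, of the other arrestins and the MYC-MAX-MLX network genes that were tested, at 2 µM (yellow) and 10 µM (green). Filled points were called: Mxi1 at 2 µM (-0.63), and Mxd1 (0.60) and Mycn (-1.68) at 10 µM.

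Among other genes known as MondoA or ChREBP targets, edgeR and DESeq2 called 0 of 15 tested genes at 2 against 0 µM. In edgeR, 0.497% of all tested genes were called there, so 0 of 15 is near that share. Of the 15, 3 had an unadjusted edgeR p below 0.05, again without a share over all genes. The list's median log2 fold change at 2 against 0 µM was -0.04, beside -0.01 over all tested genes. The most negative value was that of Gckr, a regulator of glucokinase, at -0.84 (SE 0.453, edgeR adjusted p = 0.31) on 4 to 16 counts per library at 0 and 2 µM, a gene named after its values were seen. Hbp1, a transcriptional repressor, was at 72.01 ± 2.96, 49.8 ± 0.511 and 82.3 ± 9.57 CPM. Its log2 fold change of -0.53 at 2 µM (SE 0.0781, edgeR adjusted p = 0.0051) was short of 1.5-fold, and it rose from 2 to 10 µM by 0.72 (SE 0.0858, edgeR adjusted p = 0.000264). That rise was 0.56 and not called without 10 µM replicate 2.

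At 10 against 0 µM, 3 of the 15 tested target genes were called (20%, beside 3.09% of all tested genes). At 10 against 2 µM, 4 were (26.7%, beside 5.51%). These were Fasn, Elovl6 and Fgf21 in both and Hbp1 in the latter. Fasn, fatty acid synthase, fell by 0.81 on the log2 scale against untreated cells (SE 0.148, edgeR adjusted p = 0.00489), a call lost with 5 of the 8 libraries left out in turn (untreated replicates 2 and 3, 2 µM replicate 2 and both of 10 µM, -0.99 to -0.70) and with total counts only (-0.60). Elovl6, a fatty acid elongase, fell by 0.79 (SE 0.0748, edgeR adjusted p = 6.42e-05) and stayed called with any library left out, but not with total counts only (-0.57, and likewise at 10 against 2 µM with -0.57). Fgf21, a metabolic hormone, had 0, 1 and 3 counts in untreated libraries, 1, 2 and 4 counts in those of 2 µM, and 16 and 11 counts in those of 10 µM. It was called higher at 10 µM, but on so few counts its fold depends on the prior count and is not given, and the call was lost with 3 of the 8 libraries left out in turn (untreated replicate 2 and both of 10 µM). Its call at 10 against 2 µM was lost with 7 of the 8, all but untreated replicate 1, and without the low-count filter.

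Genes that take up glucose or make and use glucose phosphates, the signal MondoA senses, had a median log2 fold change of -0.20 at 2 against 0 µM, beside -0.01 over all tested genes. Of 28 tested, 24 had a negative value. Of the 28, 1 was called (3.57%), beside 0.497% of all genes. An unadjusted edgeR p below 0.05 was found for 13, again without a share over all genes, so no enrichment is read from it. Pfkp, the platelet-type phosphofructokinase, fell by 0.64 (SE 0.068, edgeR adjusted p = 0.00121), from 57.6 ± 0.709 to 37.02 ± 1.36 CPM, and was at 55.2 ± 0.690 CPM at 10 µM. The Pfkp call at 2 µM was lost without untreated replicate 3 (-0.63) or 2 µM replicate 2 (-0.65), and with total counts only (-0.56). Slc2a1, the basal glucose transporter that Txnip helps remove from the surface, had -0.43 at 2 µM (SE 0.0729, edgeR adjusted p = 0.0111) and was not called. Unlike Txnip, it was lower still at 10 µM, where it fell by 0.85 against untreated cells (SE 0.0836, edgeR adjusted p = 8.55e-05).

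At 10 against 2 µM, 3 of the 28 tested genes of this group were called (10.7%, beside 5.51% of all tested genes). At 10 against 0 µM, 5 were (17.9%, beside 3.09%). Besides Slc2a1 these were Pfkl, the liver-type phosphofructokinase, which fell by 0.98 (SE 0.0826, edgeR adjusted p = 2.89e-05), Pgm2, a phosphoglucomutase, which fell by 0.67 (SE 0.0849, edgeR adjusted p = 0.000542), and Gpi1, glucose phosphate isomerase, which fell by 0.61 (SE 0.0738, edgeR adjusted p = 0.000375). Gpi1 is named after its values were seen, and its call was lost without 10 µM replicate 1 (-0.58). With total counts only, the calls of Pgm2 (-0.45) and Gpi1 (-0.39) were lost. Slc2a6, a lysosomal hexose transporter, rose by 1.20 (SE 0.166, edgeR adjusted p = 0.000911), a call lost without 10 µM replicate 2 (1.13). From 2 to 10 µM, Slc2a8, another intracellular hexose transporter, rose by 0.84 (SE 0.164, edgeR adjusted p = 0.00441), after -0.62 (SE 0.15, edgeR adjusted p = 0.0446) at 2 against 0 µM, but the rise was not called in DESeq2 (0.80) or with 4 of the 8 libraries left out in turn (2 µM replicates 2 and 3 and both of 10 µM, 0.68 to 0.93).

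Among partners of the Txnip protein, 20 genes of the thioredoxin system were tested. Of these, edgeR and DESeq2 called 0 at 2 or 10 against 0 µM. In edgeR, 0.497% and 3.09% of all tested genes were called there, so 0 of 20 is near those shares. The unadjusted edgeR p was below 0.05 for 4 and 6 of them, again without a share over all genes. Txn1, the thioredoxin that Txnip binds, had 0.18 (SE 0.0948) at 2 and -0.21 (SE 0.107) at 10 µM. Rrm2, a subunit of the ribonucleotide reductase that thioredoxin keeps reduced, fell from 2 to 10 µM by 0.65 (SE 0.0919, edgeR adjusted p = 0.000721), but was not called with total counts only (-0.52). Rrm2 was the 1 gene of the 20 called at 10 against 2 µM (5%, beside 5.51% of all tested genes). Of 9 tested ubiquitin ligases that bind the PPxY motifs of alpha-arrestins, 1 was called at 10 against 0 µM (11.1%, beside 3.09% of all tested genes). This was Hecw2, which rose by 0.89 (SE 0.153, edgeR adjusted p = 0.00372). The rise was not called in DESeq2 (0.84) or with 4 of the 8 libraries left out in turn (untreated replicates 2 and 3 and both of 10 µM, 0.82 to 0.87). Hecw2 was also the 1 ligase called at 10 against 2 µM (11.1%, beside 5.51%). That call was lost in DESeq2 (0.72) and with 6 of the 8 libraries left out in turn. Itch, the ligase known to act on Txnip, had 0.07 (SE 0.0661) at 2 and 0.07 (SE 0.0737) at 10 µM. Of 20 tested AMPK, mTORC1 and FoxO regulators, which act upstream of Txnip transcription or stability, edgeR called 0 in each comparison. Beside 0.497%, 3.09% and 5.51% of all tested genes at 2 against 0, 10 against 0 and 10 against 2 µM, that is near the share. In the same order, the unadjusted edgeR p was below 0.05 for 1, 8 and 8 genes, again without a share over all genes. DESeq2 called 1, Foxo3, at 10 against 0 µM (-0.62), a gene named after its values were seen. In edgeR, Foxo3 had -0.58 at 2 against 0 µM (SE 0.0981, edgeR adjusted p = 0.0115). At 10 against 0 µM it also had -0.58 (SE 0.11, edgeR adjusted p = 0.00608), and both were just short of 1.5-fold. Over all 7 lists, 2 of 105 tested genes (1.90%) were called at 2 against 0 µM, 11 (10.5%) at 10 against 0 µM and 13 (12.4%) at 10 against 2 µM, beside 0.497%, 3.09% and 5.51% of all tested genes.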

How the data were processed

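The authors deposited raw read counts per gene for each of the 8 libraries of ribosomal RNA-depleted, stranded total RNA. Per the submitters' processing notes they used FastQC, Trim Galore, cutadapt, STAR 2.5.2a, featureCounts and the mm10 build, but the annotation and the strand setting of the counting are not given in the sources used here. The 5 genes and the 7 gene lists (115 genes) were chosen with earlier results of these data known, so counts over them are not independent evidence.

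From these counts, genes passing edgeR's expression filter were fitted in R 4.3.3 with edgeR 4.0.16 (TMM scaling, quasi-likelihood test, dose as the only factor, all 8 libraries in 1 model), with Benjamini-Hochberg adjustment over all 14296 tested genes. A gene was called at an adjusted p below 0.01 and a fold above 1.5, the thresholds of the study, which used DESeq2. CPM and RPKM were computed from the counts with TMM scaling, and RPKM with exon lengths of GENCODE (95.6% of genes matched by symbol). Likeness used log2 CPM with a prior count of 2. Named genes were the 5 members of the group, the called genes of each list (at most 6, those with the strongest change), every tested arrestin and network gene, and the 5 genes most like Txnip, most opposed to it and most like Arrdc4. A count of 3 corresponds to 0.112 to 0.287 CPM across the 8 libraries, computed from total counts without TMM scaling. Scripts were tested on simulated data. The alternatives were DESeq2 1.42.0, other scalings and filters, a fit of the compared groups only, a replicate block and leaving out each library. Promoter windows came from RefSeq (GRCm38.p6), and motifs were searched on both strands.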

Additional observations from a re-analysis of the deposited data

How the results depend on the processing

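Of 240 log2 fold changes of the 5 genes under alternatives, 233 kept their direction and side of the thresholds and 3 newly passed them, all of Arrdc4 at 2 against 0 µM. Direction reversed in 4: Arrdc3 at 2 against 0 µM (0.0319) and Mlx at 10 against 2 µM (0.0474) with total counts only, and Mlxip at 2 against 0 µM without untreated replicate 3 (0.00588) or 2 µM replicate 1 (0.00514), within a range of -0.233 to 0.00588 with a library left out. Total counts only also moved the median of all genes to 0.23 at 10 against 0 µM and 0.16 at 10 against 2 µM, and the share of higher calls from 63.1% to 92.6% and from 71.2% to 91.7%, and from 23.9% to 39.4% at 2 against 0 µM. The genes called of the 5 at 2 against 0 µM were 2, not 1, in DESeq2 and without the low-count filter, and 1 to 2 with a library left out (2 without untreated replicate 1). With a library left out they were 0 at 10 against 0 µM and 1 at 10 against 2 µM throughout. List genes called at 2 against 0 µM went from 2 to 0 with total counts only and ranged from 0 to 3 with a library left out, those at 10 against 0 µM from 5 to 11 and those at 10 against 2 µM from 8 to 14. Over all genes, the calls at 2 against 0 µM were 71, with 109 in DESeq2 and 6 (without 2 µM replicate 2) to 144 (without untreated replicate 1) with a library left out. At 10 against 0 µM they were 442, with 914 by total counts only and 235 (without 10 µM replicate 2) to 633 (without untreated replicate 1), and at 10 against 2 µM they were 788, with 444 (without 10 µM replicate 2) to 884. Of the 26 calls of list genes, 6 held in every alternative and none reversed (an analysis chosen after seeing the data). The replicate numbers were not shown to pair libraries: the correlations of same-numbered deviations between 2 and 0 µM were 0.199, 0.0845 and 0.161, although each 2 µM library correlated best with its own number, and between 10 and 0 µM they were -0.145 and -0.105. With the replicate number as a block, the Txnip log2 fold change was -1.12 at 2 against 0 µM, and the list genes called were 1 at 2 against 0 µM and 7 at 10 against 0 µM. The block lost the calls of Mxi1 at 2 against 0 µM and of Mxd1, Mycn, Fasn and Hecw2 at 10 against 0 µM. At 10 against 2 µM it lost those of Hecw2, Slc2a8 and Fgf21. A fit of the compared groups only lost the calls of Mxd1, Fasn and Hecw2 at 10 against 0 µM. The cause of these shifts was not tested. Fgf21, Gm15441 and the untested arrestins were limited by depth.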

Other observations

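The relaxed E-box pair of the Txnip promoter window was found in windows of 15 genes, of which 14 were in the count tables and 11 were tested. At 2 against 0 µM, Txnip was the only one called. The others had log2 fold changes from -0.28 to 0.31, such as -0.17 (SE 0.068) for Fnip1, a folliculin partner in nutrient signalling, and -0.14 (SE 0.063) for Nfkb2. Rbmxl1, an RNA-binding protein gene, fell at 10 against 0 µM by 0.60 on the log2 scale (SE 0.121) and at 10 against 2 µM by 0.66 (SE 0.122). The motif was written with the Txnip window in view, so this count describes these windows and supports no role for the motif.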
